A study of Mus musculus with 6 samples.

Results

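Histone-modifying and chromatin remodelling genes were compared between the hippocampus of 2 inbred mouse strains, C57BL/6 and DBA/2. The members were taken by gene symbol and are the genes whose symbols begin with Hdac, Kdm, Kmt, Sirt, Kat, Ncor, Chd or Brd followed by a digit, or with Smarc, Setd or Ehmt. Kdm5c, Kdm5d, Kdm6a and symbols ending in os or -ps were left out. This gave 96 of the 51912 genes in the table. Of these, 93 had enough counts to be tested, and 3 had not: Kdm4dl, with 22 counts over the C57BL/6 libraries and 25 over the DBA/2 libraries, and the gene copies Kat6b-ps1 and Kat6b-ps2, which had 0 counts. The symbol pattern reads no measured value, but the group was put forward with results of this strain comparison known, so the numbers of members called are given as a description and nothing is read from them.

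Each strain had 3 RNA-seq libraries of frozen hippocampus, the cortical structure of memory formation, from samples picked at random. The labels state no allele, treatment, age, sex or substrain. Nor do they tie a library to 1 animal, and the p-values here measure only how libraries of a strain vary, part of which may be technical. The series set out to find genes of unequal expression in these strains.

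DNA in the nucleus is wound around histone proteins, and the tails of these histones carry acetyl and methyl groups. Acetyltransferases and methyltransferases write these marks, deacetylases and demethylases remove them, bromodomain proteins bind acetylated tails, and the SMARC and CHD remodellers use ATP to move or evict nucleosomes. In neurons these proteins work in transcription during development and memory formation, and many of their genes are mutated in neurodevelopmental disorders.

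Total counts ran from 13839366 to 20185683 per library. Counts of Xist, the RNA of the inactive X chromosome, stood at 3214, 1 and 6995 in C57BL/6 replicates 1 to 3 and at 12, 10 and 2 in DBA/2, while the Y-linked Kdm5d had 630 to 906 counts in every library. C57BL/6 replicates 1 and 3 therefore held transcripts of both kinds, and where a named gene lost its call without these libraries its adjusted p is given. Markers of other cells and of neighbouring tissue differed between the strains. Of 12 markers of thalamus and habenula 7 were lower in DBA/2 and none higher, with a summed level of 557.5 to 796 CPM in C57BL/6 and 314 to 400.7 CPM in DBA/2 and a median log2 fold change of -0.93. Of 12 myelin markers 3 were lower and none higher (7068 to 8835 against 4758 to 6421 CPM), and of 12 microglia markers 7 were lower and 1 higher (453 to 480 against 353 to 388 CPM). Of 10 neuron markers 3 were lower and none higher (7295 to 7613 against 7377 to 7679 CPM), and no marker of these 4 lists was at 0 in a library. Astrocyte markers had 2 higher and 6 lower of 12, precursors of oligodendrocytes none and 4 of 7, endothelial cells and pericytes 2 and none of 9, immediate early genes none and 8 of 15, and new neurons none and 2 of 8. No marker of choroid plexus (9 genes) or red blood cells (5 genes) was called, but their levels varied widely within a strain. Choroid plexus markers summed to 675 to 1516 CPM in C57BL/6 and 1246 to 2741 CPM in DBA/2. Red blood cell markers summed to 90.3 to 311 CPM in C57BL/6 and 84.4 to 178 CPM in DBA/2. Median log2 fold changes were 0.44 and -0.55 in these lists, so the missing calls do not show equal levels. The part of these differences in the results that follow was not tested, and in whole tissue fewer cells of a type and less RNA per cell cannot be told apart.

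The members spanned a wide range of levels. Per length, as the deposited FPKM, the tested members ran from 0.328 for Kdm4d to 93.95 for Chd3, with Setd5 in the middle of the order at 8.82. Chd3, a remodeller of the nucleosome remodelling and deacetylase (NuRD) complex, stood above Smarcc2, a core scaffold subunit of the SWI/SNF remodeller, at 59.1 FPKM and the deacetylase Hdac11 at 39.6 FPKM. High members of other families were Ehmt2, a methyltransferase of repressive marks, at 36.6, the bromodomain gene Brd2 at 32.5, Sirt2 at 27.9, the acetyltransferase Kat5 at 24.3, the methyltransferase Kmt2a at 18.8 and the demethylase Kdm4b at 18.4 FPKM. Libraries of a strain lay close together, with a median coefficient of variation of 4.08% in C57BL/6 and 3.93% in DBA/2 against 6.98% and 7.9% over all genes tested. The members were also more abundant, at a median of 66.7 CPM against 17.6 CPM.

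**Figure D1:**
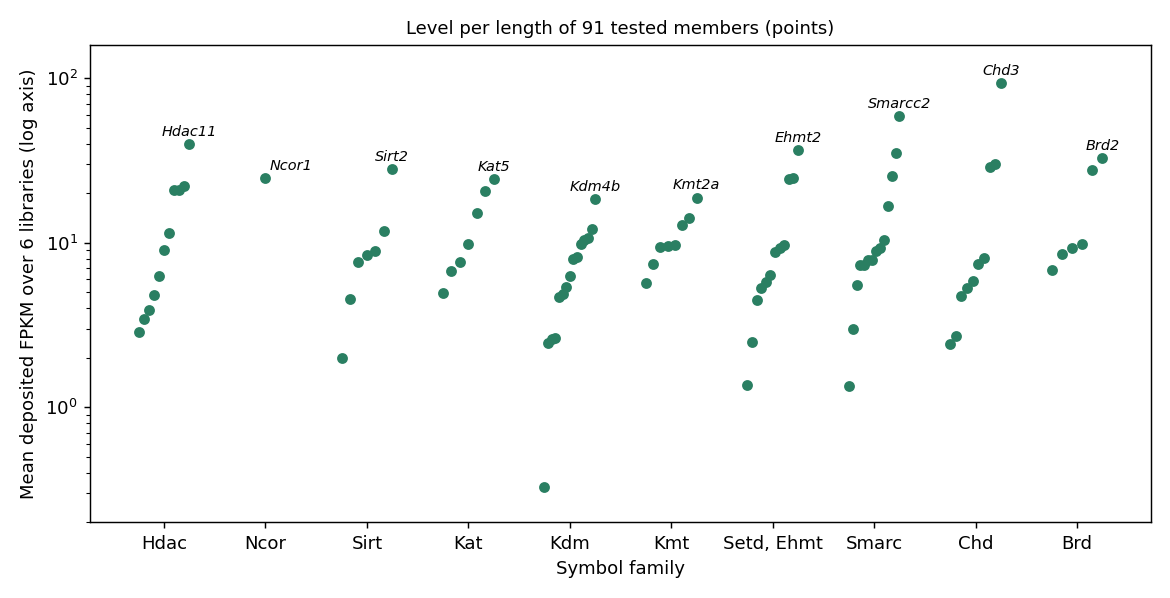
Mean deposited FPKM over the 6 libraries (vertical log axis) of each of 91 tested members (points), placed by symbol family along the horizontal axis, with the highest member shown in each family named. Chd3 at 93.95 FPKM stands highest and Kdm4d at 0.328 FPKM lowest.

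Of the 93 tested members 22 were called different between the strains, 15 higher and 7 lower in DBA/2. Calls were made where the adjusted p of the edgeR quasi-likelihood F test, fitted over 17517 genes, lay under 0.05. The members' share was 23.7%, and 22.8% of all tested genes were called. Higher in DBA/2 were 16.1% of members and 9.09% of all genes, and lower were 7.53% of members and 13.7% of all genes. Differences were small: called members had a median absolute log2 fold change of 0.23, and all called genes 0.47. Only Hdac1 changed by 1 or more on this scale, and 5.21% of all tested genes were called with a change of that size. The log2 fold change was above 0 for 66 members (71.0%) and for 50.6% of all genes, with medians of 0.05 and 0.00. In 43 members (46.2%) every library of 1 strain lay above every library of the other, 32 higher and 11 lower in DBA/2, and so did those of 36.8% of all tested genes. When C57BL/6 replicates 1 and 3, which hold Xist, were left out, which leaves 1 library in that strain, assumed to vary like the others, 6 members were called higher and 4 lower. These 10 were all among the 22, all 22 kept their direction, and 11.0% of all genes were called in that fit.

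**Figure D2:**
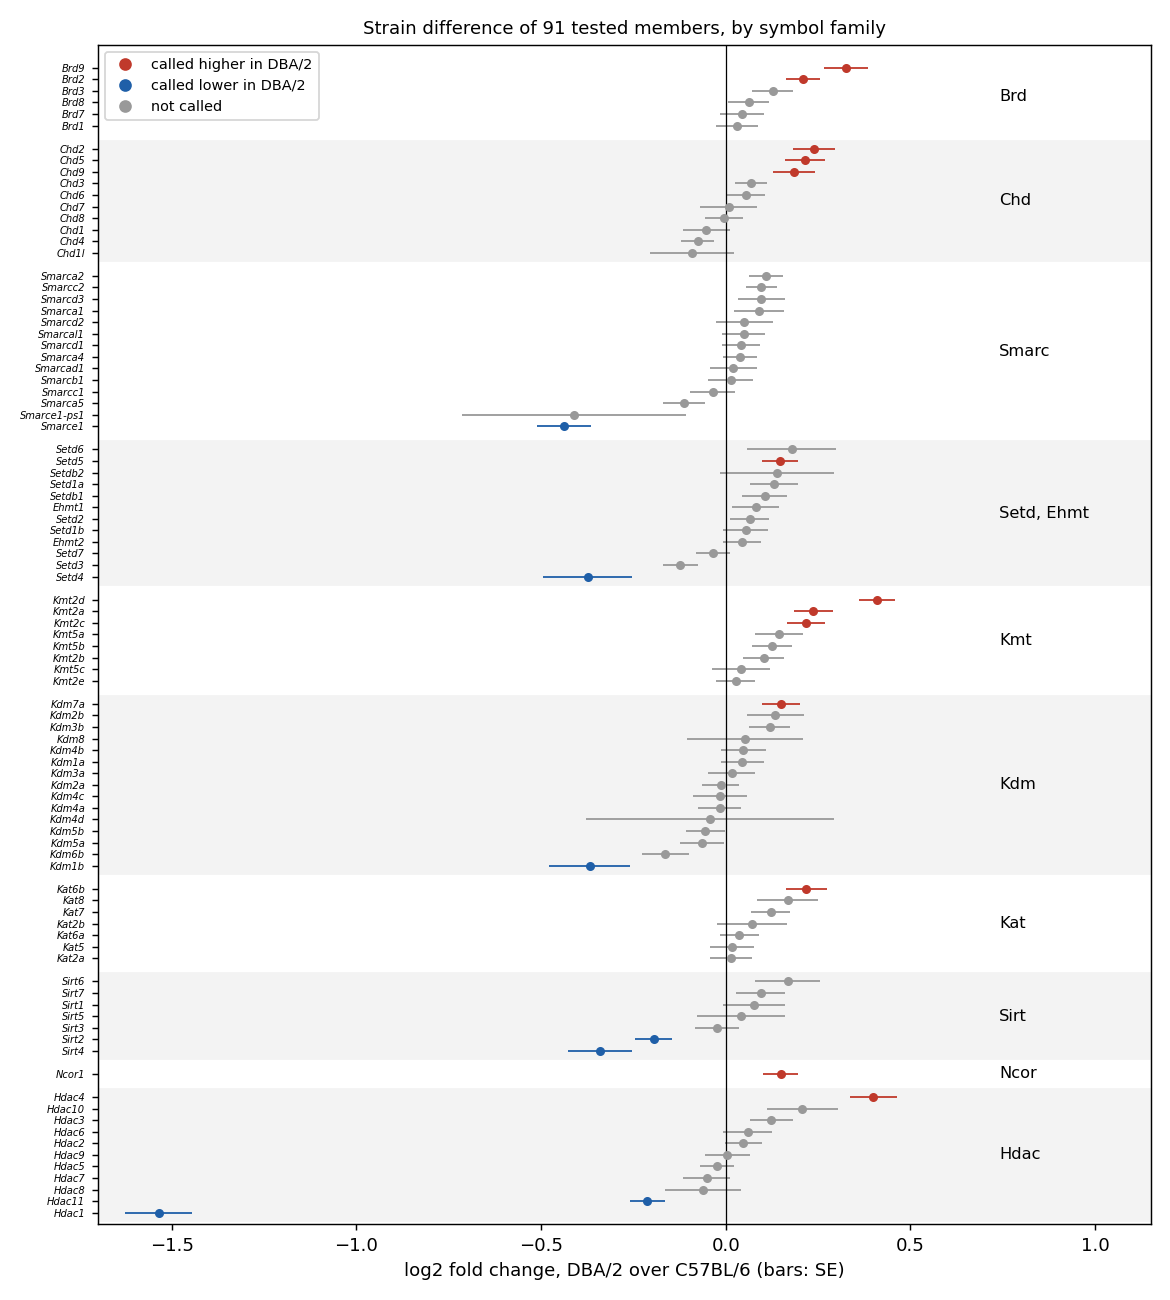
Log2 fold change of DBA/2 over C57BL/6 (horizontal axis, bars are SE) for 91 tested members, one row each, grouped by symbol family, with called members in red (13 higher) and blue (7 lower). Hdac1 lies alone at -1.53, and every other member shown lies between -0.44 and 0.41.

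The deacetylases of classes I, II and IV numbered 11, of which 1 rose and 2 fell. Hdac1, a class I enzyme of the SIN3, NuRD and CoREST complexes, showed the largest difference of all members. It lies on chromosome 4 (GRCm38, 129516104 to 129542713, minus strand). Its level was 32.9, 32.2 and 32.2 CPM in C57BL/6 and 10.7, 10.3 and 12.8 CPM in DBA/2 (CPM, counts scaled by library size). All C57BL/6 libraries lay far above all DBA/2 libraries, and the means of 32.4 ± 0.421 and 11.3 ± 1.33 CPM (SD over n = 3) differed 2.88-fold. The log2 fold change was -1.53 ± 0.09 (SE; adjusted p = 4.8e-12, edgeR quasi-likelihood F test).

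The level of Hdac1 is uncertain because the genome holds a near-identical processed copy, Gm10093, on chromosome 17 (78491582 to 78493025, plus strand). Over the 1444 bases of this copy, which start at the start codon of Hdac1, the annotated transcripts differ at 9 positions and are 99.38% identical. Counted from 1 at the start codon, with the base of Hdac1 first, these are G342A, C408T, T441A, A460G, C465T, C472T, T482C, T719C and C1170A. The longest stretch without a difference is 450 bases. Both sequences are shown over the same 90 coding bases, a window with 6 of the 9 differences, because reads within an identical stretch fit both loci. The deposited table lists 1977 exonic bases for Gm10093, more than this annotation, so the model that was counted may be longer. Capitals mark the bases that differ.
Hdac1: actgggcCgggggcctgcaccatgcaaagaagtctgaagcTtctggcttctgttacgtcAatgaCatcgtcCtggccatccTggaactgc
Gm10093: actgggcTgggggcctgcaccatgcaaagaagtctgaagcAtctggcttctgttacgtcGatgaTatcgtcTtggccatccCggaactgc

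Counts moved in opposite directions at the 2 loci. In C57BL/6 the libraries held 40, 25 and 40 counts of Gm10093, against 137, 160 and 154 in DBA/2. The copy rose from 2.08 ± 0.301 to 9.52 ± 1.53 CPM (SD over n = 3), a log2 fold change of 2.18 ± 0.18 (SE; adjusted p = 1.59e-09, edgeR quasi-likelihood F test). Of the counts of the pair, the copy took 6.81% (95% exact binomial interval 4.91 to 9.16), 5.35% (3.49 to 7.80) and 5.84% (4.20 to 7.87) in C57BL/6. In DBA/2 it took 42.8% (37.3 to 48.4), 47.9% (42.4 to 53.4) and 46.5% (41.1 to 52.1), intervals that cover counting error only. The sum of the pair stood at 35.3, 34.0 and 34.2 CPM in C57BL/6 and 18.8, 19.7 and 23.9 CPM in DBA/2. It was still lower in every DBA/2 library, with a log2 fold change of -0.74 ± 0.09 (SE; adjusted p = 3.87e-07, edgeR quasi-likelihood F test), less than the -1.53 of Hdac1 alone. How the counting treated reads that fit both loci is not given in the sources used here, and its part in the difference was not tested. Hdac2, the paralog that shares complexes with Hdac1, had 92.0 ± 1.67 and 95.1 ± 0.455 CPM (SD over n = 3) and was not called. Per Hdac2 count there were 0.343 to 0.36 Hdac1 counts in C57BL/6 libraries against 0.108 to 0.134 in DBA/2, and with the copy added 0.363 to 0.386 against 0.197 to 0.251.

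**Figure D3:**
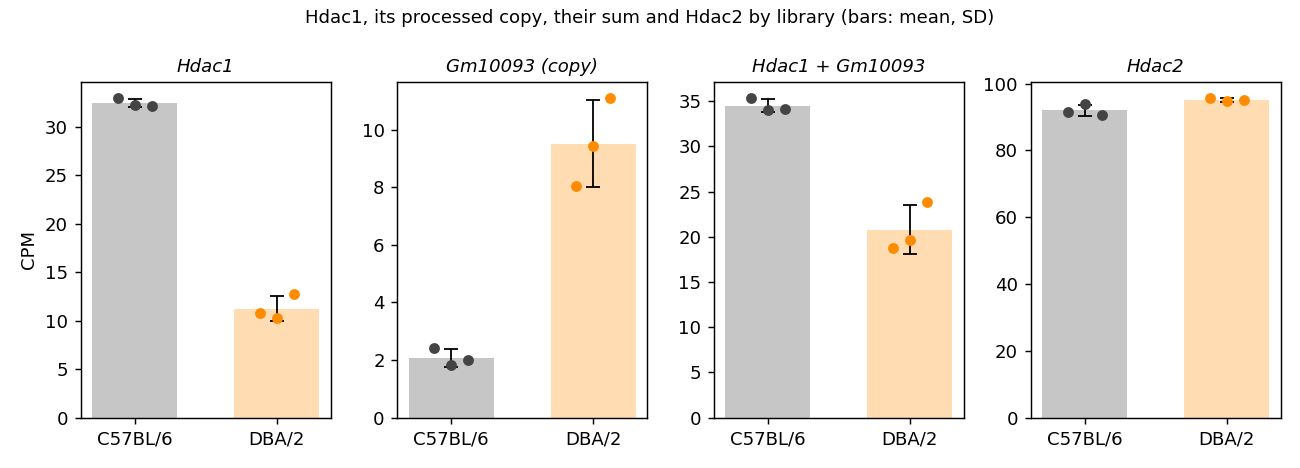
CPM in each library (points) with mean (bar) and SD (error bar, n = 3) per strain for Hdac1, its copy Gm10093, their sum and Hdac2, each panel with its own vertical axis from 0. Hdac1 and the sum are lower in all 3 DBA/2 libraries, Gm10093 is higher in all 3, and Hdac2 lies between 90.7 and 95.6 CPM in all 6.

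The other called deacetylases differed less. Hdac4, a class IIa enzyme that shuttles between nucleus and cytoplasm in neurons, had 55.7, 48.1 and 56.4 CPM in C57BL/6 and 68.3, 72.9 and 70.8 CPM in DBA/2. The strains did not overlap, and the log2 fold change was 0.40 ± 0.06 (SE; adjusted p = 4.59e-05, edgeR quasi-likelihood F test). Its class IIa relatives Hdac5, at 196 and 192 CPM, Hdac7, at 50.8 and 49.0 CPM, and Hdac9, at 50.7 and 50.9 CPM in C57BL/6 and DBA/2, were not called. Hdac11, the class IV enzyme, had 162, 163 and 167 CPM in C57BL/6 and 139, 138 and 148 CPM in DBA/2, a log2 fold change of -0.21 ± 0.05 (SE; adjusted p = 0.00195, edgeR quasi-likelihood F test). Its adjusted p without the C57BL/6 libraries with Xist was 0.126. The X-linked Hdac6, a deacetylase of tubulin, had 65.1 ± 5.12 and 67.9 ± 5.21 CPM, and the X-linked Hdac8 had 14.3 ± 1.16 and 13.6 ± 0.638 CPM (SD over n = 3). Neither was called.

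Ncor1, a nuclear receptor corepressor that recruits Hdac3 to chromatin, rose from 302 ± 12.6 to 335 ± 11.5 CPM (SD over n = 3), by 0.15 on the log2 scale with an adjusted p of 0.0232 in the edgeR quasi-likelihood F test. The call on Ncor1 was lost without C57BL/6 replicate 1 or 2 or DBA/2 replicate 2 or 3 (adjusted p = 0.0526 to 0.124), and it was 0.0886 without those with Xist. Ncor1 also overlaps Ttc19 on the opposite strand over 12026 bases of the gene bodies, and Ttc19 had a log2 fold change of 0.23 (adjusted p = 0.000968, edgeR quasi-likelihood F test). Whether counting used strand is not given in the sources used here, so reads of the overlap cannot be told apart. Hdac3 had 80.7 ± 3.82 and 87.8 ± 5.23 CPM (SD over n = 3) and was not called.

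Of the 7 sirtuins, which use NAD to remove acyl groups, 2 fell and none rose. Sirt4, a mitochondrial sirtuin, had 28.7, 33.2 and 33.3 CPM in C57BL/6 and 25.6, 22.1 and 27.7 CPM in DBA/2, a log2 fold change of -0.34 ± 0.09 (SE; adjusted p = 0.00547, edgeR quasi-likelihood F test). The lowest C57BL/6 library lay just above the highest DBA/2 library. Sirt2, a mostly cytoplasmic tubulin deacetylase that is abundant in oligodendrocytes, had 156, 145 and 150.6 CPM in C57BL/6 and 136, 132 and 126 CPM in DBA/2. Its log2 fold change was -0.20 ± 0.05 (SE; adjusted p = 0.00547, edgeR quasi-likelihood F test), and the adjusted p was 0.361 without the C57BL/6 libraries with Xist. Myelin markers were lower in the same libraries, with the values given above, and their part in the fall of Sirt2 was not tested. Sirt1, Sirt3, Sirt5, Sirt6 and Sirt7 were not called. The nuclear sirtuin Sirt6 had 20.03 ± 1.117 and 22.5 ± 1.66 CPM (SD over n = 3), with no overlap between the strains.

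Of 7 tested acetyltransferases 1 rose and none fell. Kat6b, an acetyltransferase of histone H3 whose mutation causes syndromic intellectual disability, rose from 77.2 ± 3.91 to 89.7 ± 2.32 CPM (SD over n = 3). Its log2 fold change was 0.22 ± 0.06 (SE; adjusted p = 0.0054, edgeR quasi-likelihood F test), and the adjusted p was 0.0511 without C57BL/6 replicate 1, 0.324 without the libraries with Xist, and 0.0582 and 0.0543 with limma on log2(FPKM + 1) and log2(FPKM + 0.1). Its paralog Kat6a had 89.5 ± 2.01 and 91.9 ± 3.58 CPM (SD over n = 3), within the spread of the libraries. The most abundant members per length, Kat5 and Kat2a, had 48.7 and 49.2 CPM and 71.4 and 72.1 CPM in C57BL/6 and DBA/2.

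Methyltransferases of the KMT2 family, which methylate histone H3 at promoters and enhancers, held 3 of the rises. Kmt2d, an enhancer methyltransferase that is mutated in Kabuki syndrome, had 209.6, 226 and 219.7 CPM in C57BL/6 and 279, 284 and 306 CPM in DBA/2. The groups were well apart, and the log2 fold change of 0.41 ± 0.05 (SE; adjusted p = 6.55e-07, edgeR quasi-likelihood F test) was the largest rise among the members. Kmt2c, its close paralog, had 171, 175 and 181 CPM in C57BL/6 and 191, 216 and 206.5 CPM in DBA/2, with a log2 fold change of 0.22 ± 0.05 (SE; adjusted p = 0.00237, edgeR quasi-likelihood F test). Kmt2a, the MLL gene of mixed lineage leukaemia, had 272, 287 and 306 CPM in C57BL/6 and 315, 352.4 and 352 CPM in DBA/2, with a log2 fold change of 0.24 ± 0.05 (SE; adjusted p = 0.00166, edgeR quasi-likelihood F test). Without the C57BL/6 libraries with Xist, Kmt2d and Kmt2a stayed called, and Kmt2c had an adjusted p of 0.0792. Kmt2b had 89.6 ± 5.46 and 96.2 ± 3.39 CPM and Kmt2e 146 ± 9.93 and 148.5 ± 2.67 CPM (SD over n = 3), and neither was called. Of the Kmt5 genes, whose enzymes methylate histone H4, Kmt5a, Kmt5b and Kmt5c had log2 fold changes of 0.14, 0.13 and 0.04 and were not called.

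The 250 bases before the RefSeq start sites of these 3 genes are shown (GRCm38.p6, minus strand, printed in the direction of transcription), because the genes rose together. Capitals mark the GC box GGGCGG on either strand, the motif bound by SP factors. Matches can overlap, and they describe the letters only.
Kmt2d, chr15:98871206-98871455: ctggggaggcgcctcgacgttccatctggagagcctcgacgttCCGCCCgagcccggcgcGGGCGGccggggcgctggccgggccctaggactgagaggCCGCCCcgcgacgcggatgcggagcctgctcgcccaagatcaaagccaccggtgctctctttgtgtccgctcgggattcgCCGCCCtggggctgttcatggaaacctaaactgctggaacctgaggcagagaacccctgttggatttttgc
Kmt2a, chr9:44881290-44881539: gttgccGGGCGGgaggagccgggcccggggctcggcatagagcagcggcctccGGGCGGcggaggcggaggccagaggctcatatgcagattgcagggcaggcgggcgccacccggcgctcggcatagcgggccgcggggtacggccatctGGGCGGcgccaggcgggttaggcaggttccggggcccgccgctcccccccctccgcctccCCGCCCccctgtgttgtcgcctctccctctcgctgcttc
Kmt2c, chr5:25498784-25499033: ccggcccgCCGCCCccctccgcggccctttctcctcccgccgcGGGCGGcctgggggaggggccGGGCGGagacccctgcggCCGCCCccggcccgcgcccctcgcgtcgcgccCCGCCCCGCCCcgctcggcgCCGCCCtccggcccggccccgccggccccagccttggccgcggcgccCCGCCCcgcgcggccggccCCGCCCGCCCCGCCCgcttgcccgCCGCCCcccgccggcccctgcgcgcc

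Windows of the same length before RefSeq start sites were at hand for 72 members, 17 of them called. A GC box stood in the window of 11 of 12 called higher, 3 of 5 called lower and 39 of 55 uncalled members. It stood in 35.4% of all 27025 genes with such windows, which were not limited to genes tested here. A gene counted if any of its windows held the motif. Another 5 motifs were searched on either strand. The CCAAT box, as CCAAT, stood in 1 of 12, 3 of 5 and 25 of 55 members and in 37.5% of genes. The ETS motif, as CCGGAAG, stood in 4 of 12, 1 of 5 and 9 of 55 members and in 7.83% of genes. The NRF1 motif stood in 1 of 12, 0 of 5 and 1 of 55 members and in 0.877% of genes. The E-box, as CACGTG, stood in 4 of 55 uncalled members, in no called member and in 6.86% of genes, and the CRE, as TGACGTCA, in no member and in 1.77% of genes. For CG dinucleotides the window of a gene with the most was taken, and the median over genes was 28, 17 and 21 in these groups of members. It was 6 over all genes with windows. Kmt2d had 26, Kmt2a 29 and Kmt2c 48.

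Of the 12 SET domain and EHMT methyltransferases 1 rose and 1 fell. Setd4 had 12.6, 15.4 and 12.02 CPM in C57BL/6 and 10.6, 9.19 and 11.02 CPM in DBA/2, a log2 fold change of -0.37 ± 0.12 (SE; adjusted p = 0.0271, edgeR quasi-likelihood F test). That call was lost without C57BL/6 replicate 2 (adjusted p = 0.172), the highest library, or DBA/2 replicate 2 (adjusted p = 0.125), the lowest. It was also lost under the DESeq2 Wald test (adjusted p = 0.072) and with limma on log2(FPKM + 1) or log2(FPKM + 0.1) (adjusted p = 0.101 and 0.103), and the log2 fold change was -0.58 without the libraries with Xist. Setd5, a gene mutated in intellectual disability, rose from 154 ± 6.26 to 170 ± 3.93 CPM (SD over n = 3), by 0.15 on the log2 scale with an adjusted p of 0.0298 in the edgeR quasi-likelihood F test. The call on Setd5 was lost without C57BL/6 replicate 1 or 2 or DBA/2 replicate 2 or 3 (adjusted p = 0.0514 to 0.167), without those with Xist (adjusted p = 0.365), and on both FPKM scales (adjusted p = 0.0726 and 0.0749, limma). Ehmt1 and Ehmt2, partners in a complex that methylates histone H3 in silent chromatin, had 42.1 ± 1.11 and 44.6 ± 1.62 CPM and 198 ± 8.09 and 204 ± 12.8 CPM (SD over n = 3), and neither was called. Setd7, among the most abundant of the family per length at 24.9 FPKM, had 273 ± 10.5 and 266 ± 6.36 CPM (SD over n = 3).

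Of 15 tested demethylases 1 rose and 1 fell. Kdm1b, a flavin-dependent demethylase active in oocytes, had 15.6, 12.7 and 14.1 CPM in C57BL/6 and 10.9, 10.95 and 11.1 CPM in DBA/2. Its log2 fold change was -0.37 ± 0.11 (SE; adjusted p = 0.0163, edgeR quasi-likelihood F test), and the adjusted p was 0.111 without C57BL/6 replicate 1. Without the libraries with Xist the log2 fold change was -0.21 with an adjusted p of 0.574. The DESeq2 Wald test gave Kdm1b an adjusted p of 0.0547, and limma gave 0.0673 on log2(FPKM + 1), with a change of -0.24, and 0.0696 on log2(FPKM + 0.1). The gene overlaps Tpmt on the opposite strand over 1239 bases, and Tpmt had a log2 fold change of -0.46 (adjusted p = 0.0456, edgeR quasi-likelihood F test). Kdm1b also overlaps Dek on the opposite strand over 505 bases, and Dek, at -0.05, was not called. The related Kdm1a, a subunit of the CoREST complex, had 54.6 ± 1.19 and 56.3 ± 1.72 CPM (SD over n = 3). Kdm7a, a demethylase of the Jumonji type, rose from 116 ± 4.92 to 128 ± 5.57 CPM (SD over n = 3), by 0.15 on the log2 scale with an adjusted p of 0.0394 in the edgeR quasi-likelihood F test. That call was lost without C57BL/6 replicate 1 or 2 or DBA/2 replicate 2 (adjusted p = 0.136 to 0.149), without the libraries with Xist (adjusted p = 0.158), under the DESeq2 Wald test (adjusted p = 0.0613), and on both FPKM scales (adjusted p = 0.0674 and 0.0679, limma). Kdm6b, a demethylase that removes a Polycomb mark, had 59.9 ± 3.2 and 53.6 ± 2.9 CPM (SD over n = 3), with no overlap between the strains and an adjusted p of 0.0654 in the edgeR quasi-likelihood F test. Kdm4b, the most abundant per length, had 88.7 ± 5.44 and 91.6 ± 6.65 CPM, and Kdm4d had 0.95 ± 0.195 and 0.931 ± 0.169 CPM (SD over n = 3).

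Of the 14 SMARC genes, subunits and relatives of the SWI/SNF remodeller, only Smarce1 was called. Smarce1, an HMG box subunit of the complex (chromosome 11, 99209047 to 99231017), had 45.7, 42.8 and 39.96 CPM in C57BL/6 and 32.4, 33.2 and 28.9 CPM in DBA/2. Every DBA/2 library lay below every C57BL/6 library, and the log2 fold change was -0.44 ± 0.07 (SE; adjusted p = 7.87e-05, edgeR quasi-likelihood F test). The gene copy Smarce1-ps1 had 1.64 ± 0.491 and 1.25 ± 0.264 CPM (SD over n = 3) and shares sequence with a further copy, Gm8494, so its level is uncertain. The ATPases Smarca2, at 231 ± 6.78 and 249.0 ± 3.84 CPM, and Smarca4, at 163 ± 5.59 and 168 ± 1.87 CPM, were not called, nor was the scaffold Smarcc2 at 317.5 ± 2.38 and 339.5 ± 0.907 CPM (SD over n = 3). Library size alone as the scaling shifts all genes by a median of 0.02 on the log2 scale. Under it Smarca2 (adjusted p = 0.0347, edgeR) and Smarcc2 (adjusted p = 0.0425, edgeR) were called higher. Smarcc2 was also called higher on log2(FPKM + 1) and log2(FPKM + 0.1) (adjusted p = 0.0359 and 0.0384, limma). Smarcd3 and Smarcd1, related subunits of the complex, had 51.7 ± 1.3 and 55.3 ± 4.2 CPM and 109 ± 5.86 and 112 ± 1.34 CPM (SD over n = 3). The ISWI ATPase Smarca5 has 5 near-identical copies, and its log2 fold change was -0.11 both alone and with their counts added. The X-linked ISWI ATPase Smarca1 had 46.6 ± 3.14 and 49.6 ± 3.37 CPM (SD over n = 3) and was not called.

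Of the 10 CHD remodellers 3 rose and none fell. Chd2, a gene of epileptic encephalopathy, had 79.3, 72.3 and 78.2 CPM in C57BL/6 and 85.5, 93.6 and 92.4 CPM in DBA/2, a log2 fold change of 0.24 ± 0.06 (SE; adjusted p = 0.00312, edgeR quasi-likelihood F test). Chd5, a neuronal remodeller, had 257.5, 265 and 275 CPM in C57BL/6 and 287, 299.8 and 339 CPM in DBA/2. DBA/2 replicate 3 was the highest library, and without it the adjusted p of Chd5 rose from 0.00557 to 0.0506 in the edgeR quasi-likelihood F test. It was 0.112 without the libraries with Xist. Chd9 rose from 102 ± 6.67 to 116 ± 6.28 CPM (SD over n = 3), with an adjusted p of 0.0207 in the edgeR quasi-likelihood F test that was 0.131 without C57BL/6 replicate 2 and 0.103 without DBA/2 replicate 2. On log2(FPKM + 1) and log2(FPKM + 0.1) limma gave Chd9 an adjusted p of 0.13 and 0.125, and without the libraries with Xist its log2 fold change was 0.30, still a call. Within Chd9, the annotated same-strand transcript Gm45640 took 31, 10 and 29 counts in the C57BL/6 libraries against 2, 0 and 0 in those of DBA/2, opposite to Chd9. Chd3 and Chd4, which form NuRD in turn with Chd5, had 775 ± 7.29 and 813 ± 20.4 CPM and 237.5 ± 5.17 and 225 ± 5.11 CPM (SD over n = 3), without overlap between the strains in either gene and without a call.

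Among the bromodomain genes, whose proteins read acetylated histones, Brd9 and Brd2 rose. Brd9, a subunit of the non-canonical SWI/SNF complex, had 161, 178 and 170 CPM in C57BL/6 and 218.5, 192 and 229 CPM in DBA/2, a log2 fold change of 0.33 ± 0.06 (SE; adjusted p = 0.000395, edgeR quasi-likelihood F test). Brd2, a BET protein that couples acetylated histones to transcription, had 224, 220.1 and 216 CPM in C57BL/6 and 260.2, 243 and 260.0 CPM in DBA/2, a log2 fold change of 0.21 ± 0.05 (SE; adjusted p = 0.00137, edgeR quasi-likelihood F test). Without the C57BL/6 libraries with Xist the adjusted p was 0.0616 for Brd9 and 0.092 for Brd2. Brd3, a further BET gene, had 65.2 ± 0.686 and 71.3 ± 2.16 CPM (SD over n = 3), with no overlap and no call.

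**Figure D4:**
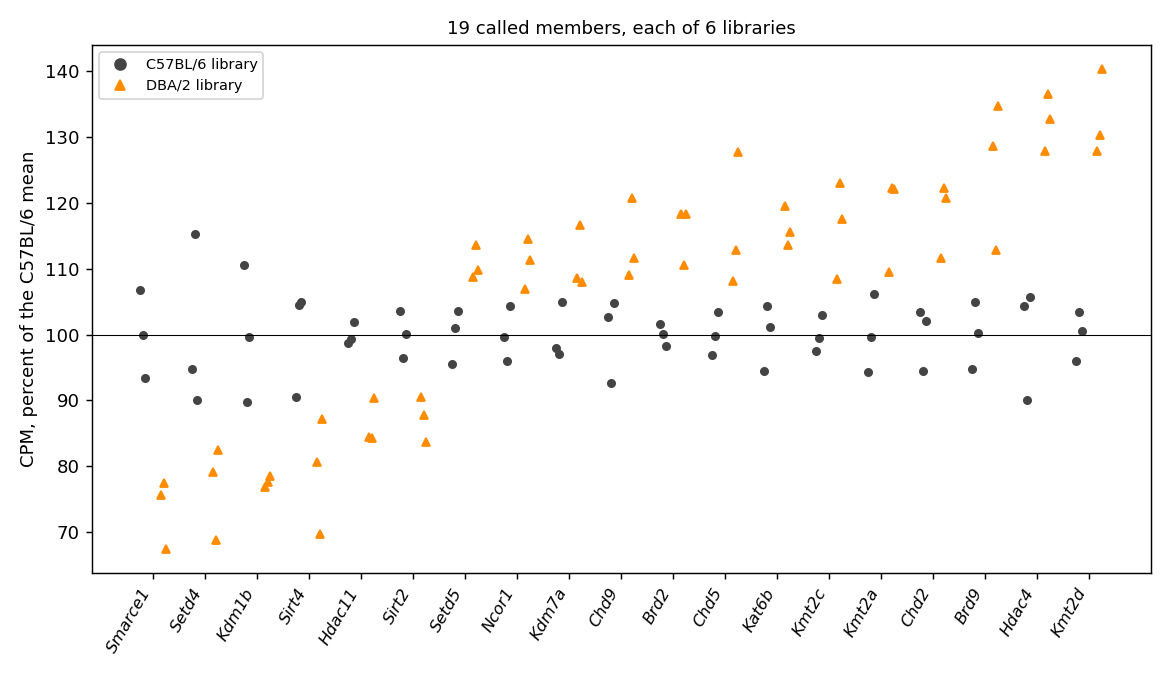
CPM of each library as a percent of the C57BL/6 mean (vertical axis) for 19 called members, Hdac1 left out, ordered by log2 fold change, with circles for C57BL/6 and triangles for DBA/2. In each gene the 3 libraries of a strain lie on 1 side of those of the other strain, and Kmt2d at the right is 32.8% above the C57BL/6 mean. The genes were called on these same libraries, so the separation adds nothing to the calls.

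The called members differed in listed exonic length by direction. The 15 that rose had listed exonic lengths of 6949 to 23148 bases with a median of 14300, and the 7 that fell had 2398 to 6650 bases with a median of 4702. Uncalled members had a median of 6093 bases. Over all genes tested, the medians were 4743 bases for those called higher, 3910 for those called lower and 3680 for the rest. Spearman's rho of length and log2 fold change was 0.27 across the 93 members and 0.0066 across all tested genes, given as descriptions across genes that share libraries. In the longest quintile of all genes, from 6776 bases, the median log2 fold change was 0.03, and it was 0.08 for the 48 members there. Longer transcripts also gather more reads, and the part of length in the calls was not tested.

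**Figure D5:**
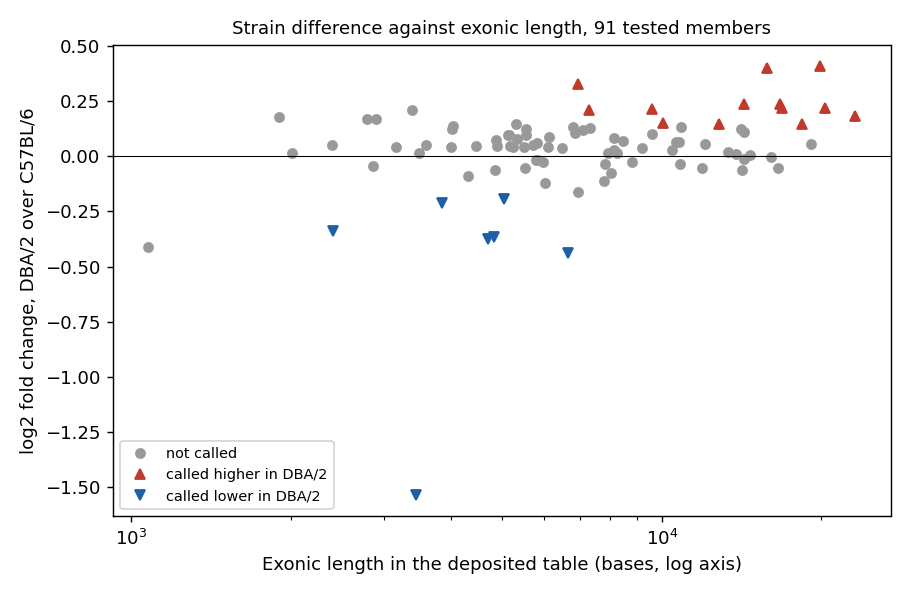
Log2 fold change of DBA/2 over C57BL/6 (vertical axis) against the exonic length in the deposited table (horizontal log axis) for 91 tested members. Called higher members (red triangles) start at 6949 bases, and called lower members (blue triangles) end at 6650 bases.

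Other chromatin genes were taken in 11 lists. Of all genes tested, 9.09% were called higher and 13.7% lower in DBA/2, and no list was tested against these shares. The lists showed 41 rises and 28 falls among 266 genes tested, whose median log2 fold change was 0.05. Without C57BL/6 replicate 1 there were 19 rises and 24 falls, and without both libraries with Xist 8 and 15. Deacetylase complex subunits had 8 higher and 3 lower of 32, with Mta3, a NuRD subunit, down from 92.9 ± 7.24 to 62.2 ± 4.45 CPM and Cdk2ap1 at 16.2 ± 0.756 and 12.8 ± 0.897 CPM (SD over n = 3). Cdk2ap1 has a near-identical copy, and with its counts added the log2 fold change went from -0.34 to -0.21 and was not called (adjusted p = 0.11, edgeR). Its call was also lost without C57BL/6 replicate 2 or 3 or DBA/2 replicate 2 (adjusted p = 0.0536 to 0.0725), without the libraries with Xist (adjusted p = 0.114) and under the DESeq2 Wald test (adjusted p = 0.0543). Other acetyltransferases and cofactors had 6 higher and 3 lower of 33, among them the SAGA subunit Tada1 from 23.6 ± 1.57 to 12.3 ± 1.21 CPM and Morf4l1, a reader in acetyltransferase complexes, from 88.3 ± 3.52 to 59.95 ± 1.0 CPM (SD over n = 3). Other lysine methyltransferases and cofactors had 6 higher and 3 lower of 25, with Ash1l up from 197 ± 6.73 to 239.5 ± 9.67 CPM and the muscle gene Smyd1 down from 2.29 ± 0.0919 to 0.468 ± 0.159 CPM (SD over n = 3). The log2 fold change of Smyd1 was -2.25, and -0.44 on log2(FPKM + 1), a scale that understates changes of low genes. Other SWI/SNF subunits had 5 higher and 2 lower of 20, the latter being the actin genes Actb, from 798 ± 45.9 to 558 ± 26.2 CPM, and Actl6a, from 13.3 ± 0.79 to 10.5 ± 0.958 CPM (SD over n = 3). The call on Actl6a was lost without C57BL/6 replicate 1 or 3 or DBA/2 replicate 2 or 3 (adjusted p = 0.051 to 0.122) and without the libraries with Xist (adjusted p = 0.517). It was also lost under the DESeq2 Wald test (adjusted p = 0.0932) and on both FPKM scales (adjusted p = 0.074 and 0.0752, limma).

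Polycomb genes had 3 higher and 2 lower of 35, and both falls were in the PRC1 complex: Cbx7, a reader of methylated histones, from 69.3 ± 2.94 to 19.5 ± 1.42 CPM and Ring1, a ubiquitin ligase, from 50.6 ± 0.98 to 39.3 ± 2.03 CPM (SD over n = 3). Remodellers of the ISWI, INO80 and ATRX groups had 5 higher and 2 lower of 34, with Rsf1 at -0.28 and Znhit1 at -0.26 on the log2 scale. Without the libraries with Xist the value of Rsf1 was -0.16 (adjusted p = 0.385, edgeR), and its call was lost on both FPKM scales (adjusted p = 0.115 and 0.119, limma). The call on Znhit1 held without DBA/2 replicate 3 but was lost without any other library (adjusted p = 0.0626 to 0.106), without the libraries with Xist (adjusted p = 0.241) and under the DESeq2 Wald test (adjusted p = 0.0815). Other bromodomain readers had 3 higher and none lower of 13, with Atad2 at 0.40 and Trim28 at 0.18. Trim28 lost its call without DBA/2 replicate 3 (adjusted p = 0.0864) and without the libraries with Xist (adjusted p = 0.229). Genes of DNA methylation had 2 higher and 4 lower of 21, with Gadd45b at -0.52 (adjusted p = 0.0535 without DBA/2 replicate 2) and the glycosylase gene Tdg at -2.67. Tdg has a pair of near-identical copies, and its value was -0.98 with their counts added. Other demethylases had 1 higher and 4 lower of 13, with Jmjd7 at -1.05 and Hr at -0.55. The call on Jmjd7 held without DBA/2 replicate 3 but was lost without any other library (adjusted p = 0.0515 to 0.149), without the libraries with Xist (adjusted p = 0.287) and under the DESeq2 Wald test (adjusted p = 0.137), and its value was -0.34 on log2(FPKM + 1). Hr lost its call without the libraries with Xist (adjusted p = 0.13). A list of arginine-modifying enzymes and a cofactor had none higher and 3 lower of 11. One of the 3 was Padi2, no methyltransferase but a peptidylarginine deiminase expressed in oligodendrocytes, from 44.8 ± 3.13 to 14.04 ± 1.98 CPM (SD over n = 3). The others were the methyltransferase genes Prmt3 at -0.56 and Prmt5 at -0.35. The call on Prmt5 was not followed under the alternatives. Histone variants and chaperones had 2 higher and 2 lower of 29, with the linker histone H1f0 at -0.22 and Nap1l1 at -0.49. Nap1l1 shares sequence with Gm4204, and with its counts added the value was 0.05 and no longer a call.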

How the data were processed

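The table the authors deposited holds raw counts, whole numbers for each gene and library, with FPKM beside them, per the file headers. Recomputed from the count, the listed exonic length and the library total, FPKM agreed within 0.005. The submitters' processing notes name GRCm38 with the tools Cufflinks 2.2.1, HISAT2 2.0.1 and Trimmomatic 0.30. How far DBA/2 sequence departs from this reference, and its part in the counts, was not tested. Which program counted reads, on which annotation and whether by strand, is not given in the sources used here. Per the labels, RNA was extracted with TRIzol and libraries were made with an NEBNext Ultra kit. Another 12 columns of per-sample values match no labelled sample and were not used.

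Counts were tested with edgeR 4.0.16 in R 4.3.3 (robust quasi-likelihood fit, TMM factors, filterByExpr by strain), with Benjamini-Hochberg adjustment across the 17517 genes tested. CPM values use the TMM factors. Where a library shows 0 counts, up to 3 counts are allowed for, 0.15 to 0.219 CPM. Counts were simulated in 5 draws for the DBA/2 against C57BL/6 comparison over 17260 to 17279 genes. Recovered were 62.9% to 72.0% of 97 to 100 genes changed 1.5-fold and 84.5% to 87.5% of 96 to 100 genes changed 2-fold. Of the calls 5.1% to 13.8% were false. Called members other than Hdac1 differed less than this, at most 1.36-fold for Smarce1. The simulation also changed far fewer genes than the 22.8% called in the data. Neither share therefore carries over to the members. Near-identical copies were sought with megablast (BLAST 2.17.0) among GENCODE M21 transcripts (GRCm38) of genes with at least 10 counts, at 95% identity over at least 200 bases and 0.5 of the shorter transcript. Coordinates are from GENCODE M21 and count from 1, and promoter windows are from RefSeq. On either strand 10 called members overlap other genes with at least 10 counts, and 3 of the overlapping genes were called. Named above were these 3, Ttc19, Tpmt and Gm45640, and the uncalled Dek.

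The members and lists were chosen with earlier results of these data known. Counts cover all members, of which 2 are not reported here by name or shown in figures. Named were the other called members, the 2 members of highest FPKM in each family, those on chromosome X, and the 2 called genes of largest change in each list of other chromatin genes. Paralogs and partners were set beside them, and Kdm1a, Kdm4d, Kdm6b, Kmt5a, Kmt5b, Kmt5c, Sirt6, Smarca5, Smarce1-ps1 and Prmt5 were added after their values were seen. Alternatives were DESeq2 1.42.0 size factors and its Wald test, library size alone, other filters, limma-voom of limma 3.58.1, limma on log2(FPKM + 1) and log2(FPKM + 0.1) of the deposited FPKM, dropping each library in turn, blocking on replicate number, leaving out libraries with over 100 Xist counts, and summing similar copies.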

Additional observations from a re-analysis of the deposited data

How the results depend on the processing

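Of the 22 called members, 8 stayed called in the same direction under all 17 alternatives (among them Hdac1, Hdac4, Kmt2a, Kmt2d, Chd2, Smarce1 and Sirt4), and 13 did so when each library was left out in turn. Leaving out 1 library gave 10 to 15 members called higher, 6 to 7 called lower, and 19 to 38 higher and 22 to 27 lower among the other chromatin genes. The lowest of these, 10 and 19 higher, came without C57BL/6 replicate 1. Without the C57BL/6 libraries with Xist, 6 members were called higher and 4 lower, and 8 higher and 15 lower among the other chromatin genes, in a fit with fewer libraries. On log2(FPKM + 1) the other chromatin genes gave 27 higher. The log2 fold change of Nap1l1 turned from -0.49 to 0.052 when the counts of its copy were added. Of 595 values of 35 named members under alternatives 50 lost a call and 3 gained one. Only the 22 called members can lose a call, so all 50 losses fell among their values. Of 372 values of other named genes 35 lost a call and 1 reversed. Same-numbered libraries of the strains deviated from their strain means with correlations of 0.208, -0.28 and -0.017. Libraries of unlike number had correlations of -0.241 to 0.258. With 3 libraries per strain these values cannot tell whether libraries were paired. With the replicate block 13 members were called higher and 7 lower, and Setd5 (adjusted p = 0.0519) and Kdm7a (adjusted p = 0.0677) lost their calls in edgeR. Kdm4d, at 0.95 and 0.931 CPM, had too few counts for a small difference to be detectable at this depth.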
